A study of Mus musculus with 4 samples.

Results

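The genes described here carry bacterial peptides into and within cells and sense them in the cytosol. They are the transporter genes Slc15a2, Slc15a3 and Slc15a4, the receptor genes Nod1 and Nod2, and Ripk2. Members were all probe sets of the array whose annotated symbol was 1 of these 6. Of the 6 genes, 5 had a named probe set, with 1 each for Slc15a2, Slc15a3, Slc15a4 and Nod1 and 2 for Nod2, so the members were 6 of 41345 probe sets. Ripk2 had no probe set named here and is not analysed. All 5 measured genes were among the 11081 named genes whose log2 signal reached 5.43, the median over all probe sets and arrays, on 1 array or more. Those 11081 are called the tested genes below, although no statistical test was made.

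The arrays measured RNA of mouse type 1 conventional dendritic cells (cDC1), which present antigens of dead cells to CD8 T cells. The 4 groups, with 1 array each, were XCR1-deficient (KO) cells with LPS and XCL1, KO cells with LPS, wild-type (WT) cells with LPS and XCL1, and WT cells with LPS. LPS, a bacterial ligand of Toll-like receptor 4, was given at 100 ng/ml to all 4 groups, so there is no array without it. Recombinant mouse XCL1, the chemokine ligand of the receptor XCR1, was given at 100 ng/ml. All mice were C57BL/6, 10 weeks old and female per the labels. The tissue of origin, the time of treatment, the kind of XCR1 deletion and any pooling of mice are not stated in the labels. With 1 array per group no difference has an error or a p-value, and the number of arrays limits the precision.

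Several features of the arrays bear on every comparison of genotype. Xcr1, the targeted gene, gave log2 signals of 5.11 and 5.54 on the KO arrays with and without XCL1, against 7.19 and 6.42 on the corresponding WT arrays. Xist, the RNA of the inactive X chromosome, gave 4.57 and 4.64 in KO and 7.91 and 7.95 in WT, while signals of the Y-linked genes Eif2s3y, Kdm5d and Uty lay between 7.01 and 8.89 on all 4 arrays. The Y-linked signals on all 4 arrays and the low Xist in KO go against the label of female mice, while the Xist signals in WT do not. Since Xist differed between KO and WT, the sex of the mice cannot be told apart from genotype either. Array names in the labels carry 2 prefixes with 0 shared between KO and WT, so a batch of arrays and genotype cannot be told apart. Of 13 named cDC1 markers, 11 or 12 were at or above 5.43 on each array, among them Irf8, Flt3 and Cadm1, while Itgae was below it on every array and Clec9a had no probe set named here. All 10 named B cell markers were at or above it on all 4 arrays too. In a bulk sample, fewer cells of a type and less RNA per cell cannot be told apart.

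SLC15 proteins are proton-coupled transporters of short peptides. SLC15A2, also called PEPT2, works at the cell surface, while SLC15A3 and SLC15A4 sit in endosomes and lysosomes and pass peptides and histidine to the cytosol. NOD1 and NOD2 are cytosolic receptors for pieces of bacterial peptidoglycan: NOD1 senses peptides with diaminopimelic acid and NOD2 senses muramyl dipeptide. Both bind the kinase RIPK2, which leads to activation of NF-kB and MAP kinases and to cytokine production.

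Slc15a2 was lower in KO than in WT in both pairs of arrays, and was the only measured member to differ by at least 1.5-fold (0.58 on the log2 scale) in any comparison. Its log2 signal was 5.58 in KO cells with LPS, against 6.43 in WT cells with LPS. With LPS and XCL1 it was 5.55 in KO cells, against 6.37 in WT cells. Both KO signals lay below both WT signals, and the KO signals were just above the limit of 5.43, the lowest by 0.12. The log2 differences were -0.85 with LPS and -0.82 with LPS and XCL1, or 1.81-fold and 1.77-fold lower in KO. The genes were chosen by their KO minus WT differences in both pairs, since Slc15a2 was known to be lower in KO in these data, so the values describe and do not test. Among the tested genes, 19 had a lower difference with LPS and 33 had a lower one with LPS and XCL1. At 1.5-fold, 2.01% of tested genes differed with LPS, 3.47% with LPS and XCL1, while 1.00% and 1.79% were lower in KO in the single pairs and 0.289% in both. XCL1 did not separate the arrays of Slc15a2, with differences of -0.03 in KO and -0.06 in WT.

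Genes with a pattern over the 4 arrays most like that of Slc15a2 were sought among the tested genes, by the smallest root mean square difference of the mean-centred log2 signals. The closest were Papss2, which makes the sulphate donor of the cell (0.03), Cmah, which encodes the hydroxylase of CMP-sialic acid (0.05), and the histone deacetylase gene Hdac9 (0.06). Papss2 had signals of 7.38 and 7.49 in KO, with and without XCL1, against 8.28 and 8.29 in WT. Cmah had 6.97 and 7.10 in KO, against 7.77 and 7.92 in WT. Hdac9 had 6.03 and 5.94 in KO, against 6.68 and 6.78 in WT. Each had both KO signals below both WT signals, which follows from the way the genes were chosen. No other member varied 1.5-fold over the arrays, so no such search was made for them.

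**Figure D1:**
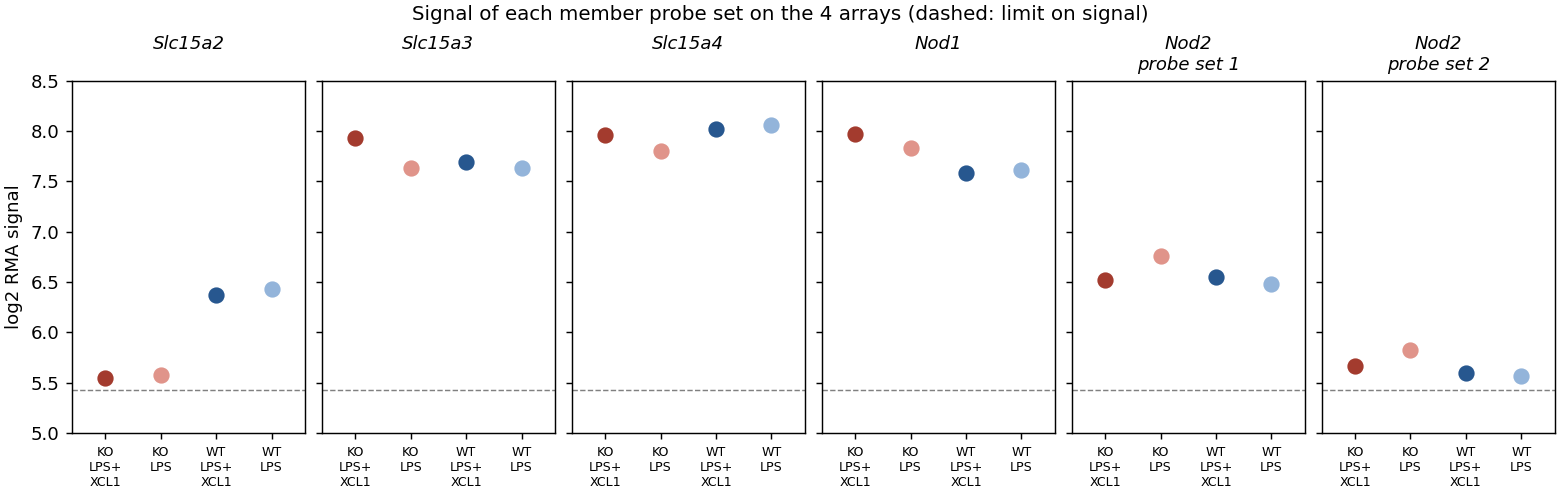
Log2 RMA signal of each of the 6 member probe sets (panels) on the 4 arrays, KO in red and WT in blue, darker with XCL1; each point is 1 array and the dashed line is the limit on signal at 5.43. The Slc15a2 points fall into a KO pair at 5.55 and 5.58 and a WT pair at 6.37 and 6.43, and Nod1 has both KO points above both WT points by less. Levels are not comparable between panels.

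Marker genes of some other cell types moved with genotype too, in the direction of Slc15a2 or against it. Of all tested genes, 39.8% were above 0 in KO minus WT with LPS and 43.2% with LPS and XCL1. All 10 named B cell markers, of 11 listed, were below 0 in KO minus WT in both pairs, with medians of -0.44 with LPS and -0.53 with LPS and XCL1. Their mean log2 signal was 7.47 and 7.45 in KO with and without XCL1, against 8.04 and 7.97 in WT. Of the T and NK cell markers, 11 of 12 were named and 10 passed the limit, with 9 and 7 of the 10 below 0. Their medians were -0.31 and -0.30, with Il7r going the other way at 0.62 and 0.34, and their mean signals were 6.41 and 6.52 in KO, against 6.75 and 6.80 in WT. The NK marker Klrb1c was below the limit on every array. For plasmacytoid DC markers 5 and 4 of 8 were below 0 and 3 and 4 above it, near the shares of all tested genes. Past 1.5-fold, 1 of the 8 was lower in KO with LPS, where 2.01% of tested genes differed. With LPS and XCL1, 1 was lower and 1 higher, where 3.47% of tested genes differed. The medians of the plasmacytoid DC list were -0.24 and -0.23. For cDC2 markers 5 and 3 of 5 were below 0, at medians of -0.24 and -0.01. The largest shift of a marker list was upward. Of 10 erythroid markers 6 were named and 4 passed the limit, each of the 4 above 0 in both pairs. Their median was 1.18 with LPS and 1.14 in the other pair. Slc4a1, Car1 and Rhag were past 1.5-fold in both pairs, where 0.406% of tested genes were higher in both. The mean signal of the 6 was 6.49 and 6.55 in KO, against 5.75 and 5.80 in WT. The cDC1 markers had medians of -0.13 and -0.17, in which Xcr1 is included. The part of these marker lists in the Slc15a2 difference was not tested.

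The endolysosomal transporters stayed within 1.5-fold in both genotype pairs. Slc15a3 gave a log2 signal of 7.63 in KO and 7.64 in WT with LPS, a difference of 0.00. With LPS and XCL1 it was at 7.93 in KO and 7.70 in WT, a difference of 0.24. The KO array with XCL1 was the highest of the 4, and the other 3 lay within 7.63 to 7.70. Slc15a4, which in mice is needed for responses of plasmacytoid DCs through endosomal Toll-like receptors, gave 7.81 in KO and 8.06 in WT with LPS. With LPS and XCL1 it gave 7.96 in KO and 8.02 in WT. Both KO signals lay below both WT signals, as for Slc15a2, but the differences within the pairs were smaller, at -0.25 and -0.06. The remaining genes of the family, Slc15a1 and Slc15a5, which are not members, were below the limit on every array.

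Both receptor genes stayed within 1.5-fold, and Nod1 had the largest positive genotype difference of the members, 0.39 with LPS and XCL1. Nod1 gave 7.83 in KO and 7.62 in WT with LPS, and 7.98 in KO and 7.58 in WT with LPS and XCL1. Both KO signals lay above both WT signals, by 0.21 and 0.39 within the pairs, so the genotypes did not overlap for 3 of the 5 measured members, Slc15a2, Slc15a4 and Nod1, a share close to the 52.1% of all tested genes. Among all tested genes, 88.8% had a lower difference than Nod1 with LPS and 94.6% with LPS and XCL1. Nod2, on its brighter probe set, gave 6.76 in KO and 6.48 in WT with LPS, and 6.52 in KO and 6.55 in WT with LPS and XCL1. Its difference was 0.28 in the first pair and -0.03 in the second. The other probe set of Nod2 was dimmer, with 5.82 in KO and 5.57 in WT with LPS, and 5.67 in KO and 5.59 in WT with LPS and XCL1. It gave 0.25 and 0.07, so the 2 probe sets had the same sign with LPS and not with LPS and XCL1. On both, the KO array with LPS was the highest of the 4.

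Across the 5 measured members, 2 were above 0 and 1 was lower by 1.5-fold in each genotype pair, and none was higher by 1.5-fold. Their median difference was 0.00 with LPS and -0.03 with LPS and XCL1, beside medians of -0.05 and -0.04 over all tested genes. The sign was the same in both pairs for 3 members, Slc15a2, Slc15a4 and Nod1, and for 67.6% of tested genes.

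**Figure D2:**
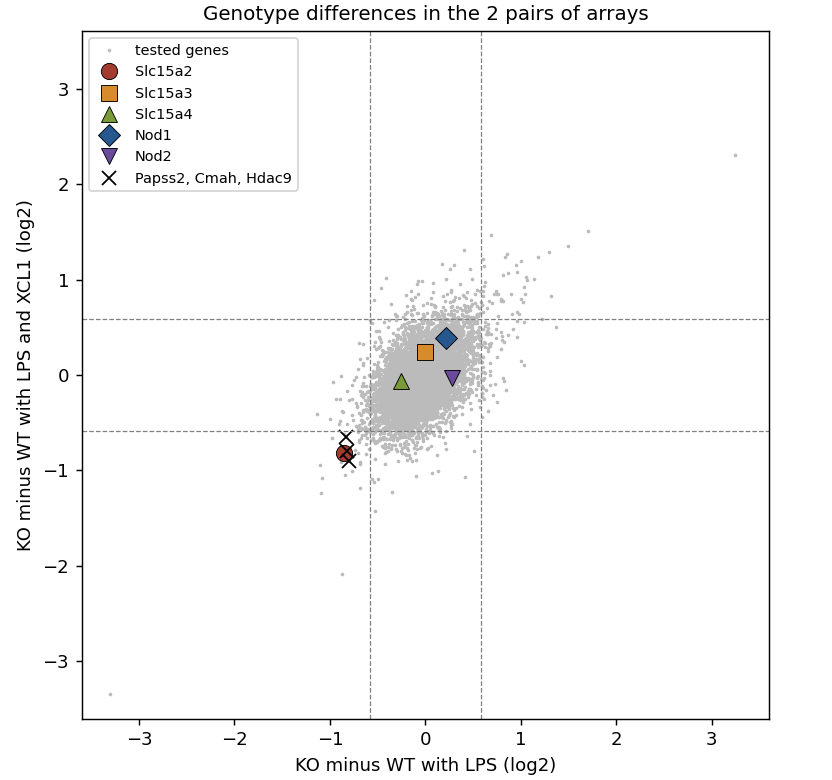
Each grey point is 1 of the 11081 tested genes, at its KO minus WT log2 difference with LPS (horizontal) and with LPS and XCL1 (vertical); large symbols are the 5 measured members, crosses are Papss2, Cmah and Hdac9, and dashed lines mark 1.5-fold. Slc15a2 lies past 1.5-fold on both axes at -0.85 and -0.82, while Slc15a3, Slc15a4, Nod1 and Nod2 lie inside the lines on both.

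The sequence upstream of the RefSeq start site is shown for Slc15a2 and Nod1, the members with the largest negative and positive genotype differences. Of the 6 genes, 4 had an entry in the RefSeq promoter table (GRCm38.p6), namely Slc15a2, Slc15a4, Nod1 and Nod2. The 250 bases upstream of the start of Slc15a2 are chr16:36784963-36785212 on the minus strand, of which 196 lie inside the span of the gene, since another of its transcripts begins further upstream. Those of Nod1, for the outer of its 2 start sites with an entry, are chr6:54972613-54972862 on the minus strand. Of these, 62 lie inside the span of the gene. Capitals mark the GC box, GGGCGG on either strand, the element bound by Sp-family factors:
Slc15a2: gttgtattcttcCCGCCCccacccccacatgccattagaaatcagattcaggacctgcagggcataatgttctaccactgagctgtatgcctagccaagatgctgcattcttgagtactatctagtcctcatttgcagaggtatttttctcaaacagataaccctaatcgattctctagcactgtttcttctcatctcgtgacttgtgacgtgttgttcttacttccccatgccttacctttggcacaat
Nod1: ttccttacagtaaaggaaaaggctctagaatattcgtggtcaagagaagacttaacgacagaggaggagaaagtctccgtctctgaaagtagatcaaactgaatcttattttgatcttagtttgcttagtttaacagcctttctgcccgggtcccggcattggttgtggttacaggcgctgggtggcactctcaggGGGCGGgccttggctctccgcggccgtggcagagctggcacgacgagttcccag
The GC box was found 1 time in the window of Slc15a2, 238 bases from the start, and 1 time in that of Nod1, 54 bases from the start. It occurred in 32.7% of all 32851 such windows. G and C made up 45.2% of the Slc15a2 window and 51.6% of the Nod1 window, beside a median of 52.4% over all windows. An interferon-stimulated response element (GAAANNGAA), a gamma-activated site (TTCNNNGAA), the PU.1 core (AGGAAGT) and an AP-1 site (TGANTCA) were also searched on both strands. These letters were in 0 places in both windows shown, and in 7.13%, 7.02%, 7.69% and 6.75% of all windows. A loose NF-kB pattern, GGG and CC with any 5 bases between, was in 0 places for Slc15a2 and 1 for Nod1, where it overlapped the GC box, and in 45.8% of all windows. The window at the inner start site of Nod1 differed, with 0 GC boxes and 1 gamma-activated site, 193 bases from the start. A match or its lack describes the window only.

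XCL1 was compared with LPS alone within each genotype, which asks what the chemokine adds with its receptor and without it. No member differed by 1.5-fold in either genotype, where 1.01% of tested genes did in KO and 0.560% in WT. In KO cells, Slc15a3 had the largest positive difference of the members at 0.30, followed by Slc15a4 at 0.15 and Nod1 at 0.15. Nod2 was lower with XCL1 in KO on both probe sets, by -0.24 and -0.15. In WT cells the members lay between -0.06 for Slc15a2 and 0.07 for Nod2. The median of the 5 members was 0.15 in KO and -0.03 in WT, beside 0.04 and 0.03 over all tested genes.

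The XCL1 effect in KO minus that in WT, which draws on all 4 arrays, was within 1.5-fold for every measured member. It was 0.24 for Slc15a3, 0.19 for Slc15a4, 0.18 for Nod1, 0.03 for Slc15a2 and -0.30 for Nod2, and the dimmer Nod2 probe set gave -0.18. At 1.5-fold, 2.91% of tested genes differed. All of these values lay between the 5th and 95th percentile of the tested genes, -0.39 and 0.41.

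**Figure D3:**
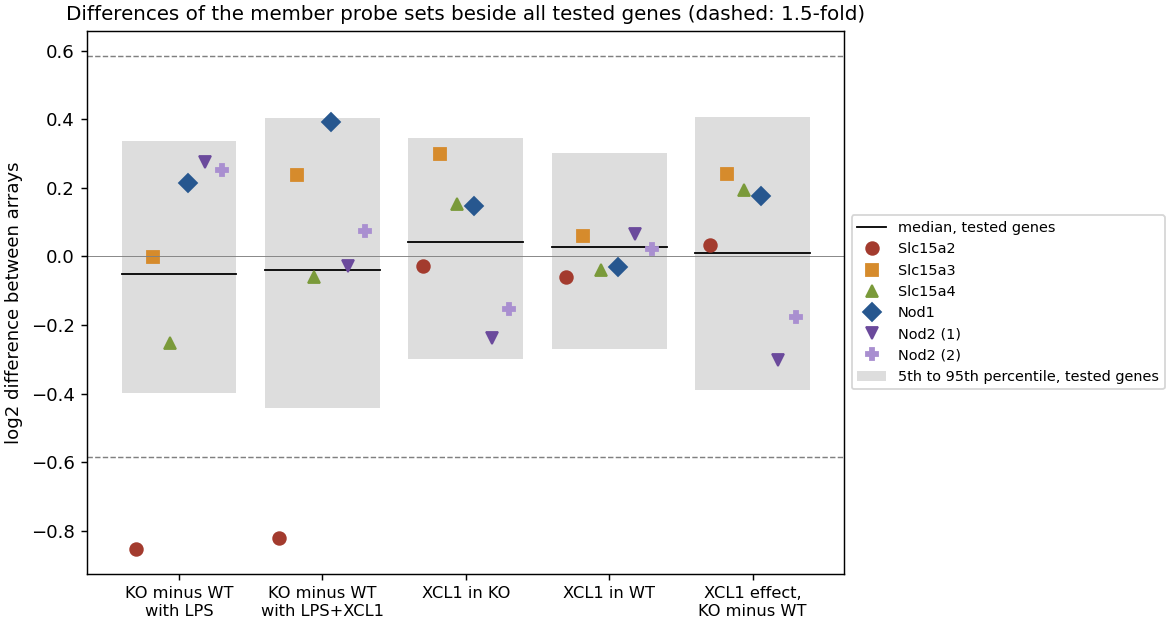
Log2 differences of the 6 member probe sets (symbols, with the 2 probe sets of Nod2 numbered) in the 5 comparisons on the horizontal axis; grey boxes span the 5th to 95th percentile of the 11081 tested genes, black lines are their medians and dashed lines mark 1.5-fold. Slc15a2 lies below the box in both genotype comparisons, at -0.85 and -0.82, and all other symbols lie inside the boxes.

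The wider pathway was described from 9 lists that hold 100 genes besides the members, of which 93 had a named probe set and 78 passed the limit. With LPS, 1 of the 78 was higher and 1 lower in KO by 1.5-fold, or 2.56% beside 2.01% of all tested genes. In the other pair, 4 of them were higher and 4 lower in KO, or 10.3% beside 3.47%. Their medians were -0.03 and 0.03. For the XCL1 effect in KO minus that in WT, 2 of the 78 were higher and 3 lower by 1.5-fold, or 6.41% beside 2.91%. The gene called in both pairs was Nos2, the inducible nitric oxide synthase, where 0.406% of tested genes were higher in both.

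Genes that connect RIPK2 to NF-kB stayed within 1.5-fold between the genotypes, as most tested genes did. In the list of NOD signalling and ubiquitin genes, 20 of 23 had a named probe set and passed the limit. None of them reached 1.5-fold in any comparison. Of all tested genes, 2.01% reached it in KO minus WT with LPS and 3.47% with LPS and XCL1. For a list this short, no call is near those shares. The differences of the 20 genes ran from -0.25 to 0.17 with LPS and from -0.31 to 0.21 with LPS and XCL1. Birc3, an inhibitor of apoptosis protein that ubiquitinates RIPK2, differed by 0.07 and 0.17, and the NF-kB subunit gene Rela by 0.00 and 0.15. Of 13 regulators of the pathway, 11 passed the limit and none reached 1.5-fold, again near the shares of all tested genes. Tnfaip3, which encodes the deubiquitinase A20, differed by 0.02 and 0.04, and the phosphatase gene Dusp1 by 0.21 and 0.16.

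Among genes that handle peptidoglycan or carry its pieces, a few passed 1.5-fold, not all in the same comparisons. Of 12 in the handling list, 8 passed the limit, and the lysozyme gene Lyz1 was among those below it. Nagk, the N-acetylglucosamine kinase that phosphorylates muramyl dipeptide before NOD2 binds it, gave 6.62 in KO and 7.38 in WT with LPS and XCL1, a difference of -0.75. With LPS it gave 6.96 in KO and 7.01 in WT, so its genotype difference was not shared by the pairs. Cd36, a scavenger receptor that works with TLR2, gave 7.83 in KO and 8.40 in WT with LPS, and 7.79 in KO and 8.47 in WT when XCL1 was added. Its differences were -0.57 and -0.68, the second past 1.5-fold. The XCL1 effect in KO minus that in WT was 0.66 for the lysozyme gene Lyz2 and -0.71 for Nagk. Dpp7, a dipeptidyl peptidase gene, was 0.59 higher with XCL1 in KO, at signals of 5.76 with and 5.17 without it, the second below the limit. Among the other carriers, the drug efflux pump gene Abcb1a was lower with XCL1 in WT by -0.63, with 6.28 against 6.91. Its XCL1 effect in KO minus that in WT was 0.72. Slc46a2, a carrier of muropeptides, was below the limit on every array. Slc46a3, of the same list, lay between 7.27 and 7.54 on the arrays, with genotype differences of -0.11 with LPS and -0.14 with LPS and XCL1.

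Other receptors and the partners of SLC15A4 were mostly within 1.5-fold, as were most tested genes. None of 9 measured NLR genes besides Nod1 and Nod2 reached it in a genotype pair or with XCL1. Naip6, a family member with near-identical copies, had an XCL1 effect in KO minus that in WT of -0.60. Of 11 measured genes of endosomal Toll-like receptor signalling, 2 were lower in KO with LPS and XCL1, where 1.79% of tested genes were. These were the kinase gene Irak1 at -0.76 and Lamtor1, a lysosomal scaffold subunit, at -0.63. With LPS they differed by -0.36 and 0.00. The XCL1 effect in KO minus that in WT was -0.63 for Lamtor1. Of the 11, 5 were above 0 in each pair, and the list medians were 0.00 and -0.05.

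Cytokine and chemokine genes that NOD signalling can induce, and that LPS induces too, were the pathway list with most calls. The lists differ in size, so the number of calls does not rank them. Of 14 measured, Nos2 gave 7.26 in KO and 6.21 in WT with LPS, and 7.07 in KO and 6.23 in WT when XCL1 was added. It was higher in KO by 1.04 in the first pair and 0.85 in the second. With LPS and XCL1 the chemokine gene Cxcl2 (0.87), Il6 (0.69) and Ccl2 (0.62) were higher as well, where with LPS they differed by 0.44, 0.42 and 0.40. Il12b, the p40 subunit gene of IL-12, gave 11.25 in KO and 11.91 in WT with LPS, a difference of -0.67 and past 1.5-fold. When XCL1 was added it gave 11.38 in KO and 11.88 in WT, a difference of -0.51. The list median was 0.12 with LPS and 0.26 with LPS and XCL1. Macrophage and monocyte markers, of which 14 of 15 were named and 13 passed the limit, had medians of 0.08 and 0.09. Of the 13, 8 were above 0 and 5 below in each pair, and Fcgr1 alone passed 1.5-fold, at 1.00 and 1.19. Their mean signal was 7.64 and 7.57 in KO, with and without XCL1, against 7.47 and 7.48 in WT. Of 10 neutrophil markers 8 passed the limit, with 7 above 0 and 1 below in each pair. Of the 8, 1 was higher in KO by 1.5-fold with LPS and 3 with LPS and XCL1. Of the 11081 tested genes, 112 and 186 were. Neutrophil markers had medians of 0.23 and 0.35, with mean signals of 6.90 and 6.79 in KO, against 6.48 and 6.50 in WT. Their part in the cytokine differences was not tested.

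**Figure D4:**
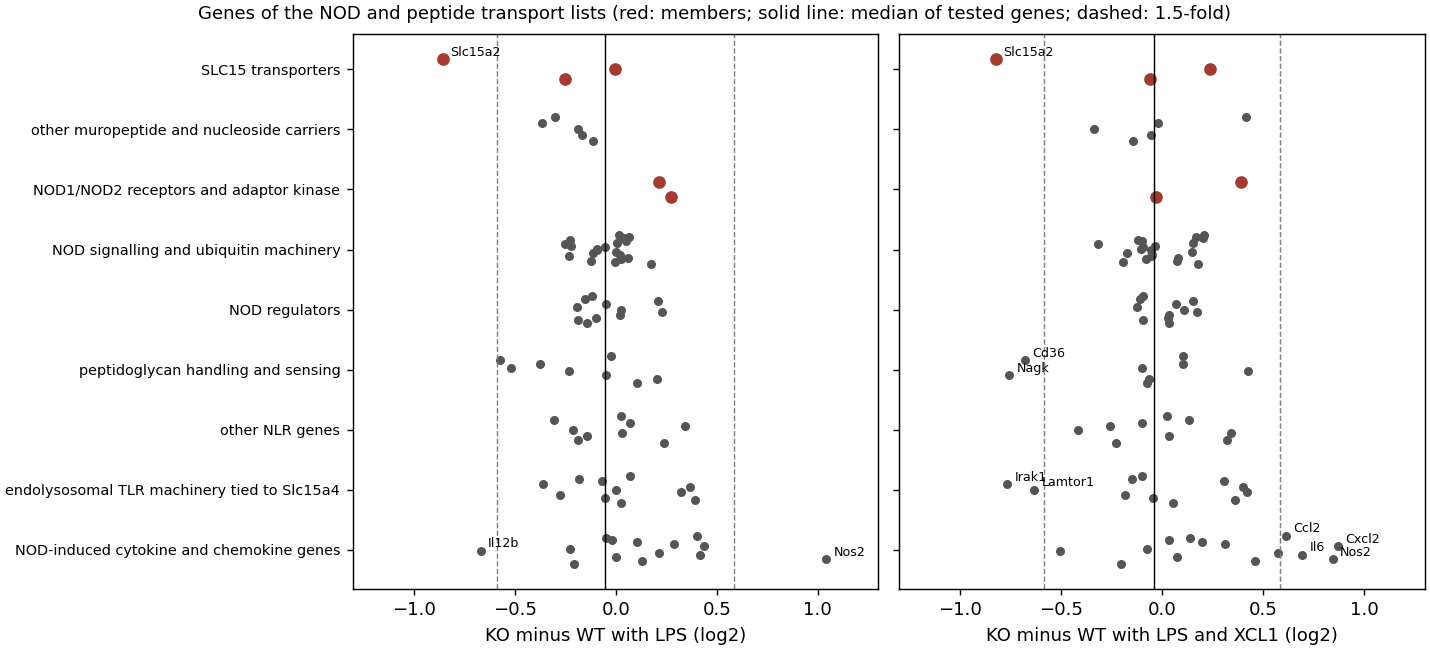
KO minus WT log2 differences with LPS (left) and with LPS and XCL1 (right) for the genes of each list that passed the limit; each point is 1 gene, members are red, the solid line is the median of all tested genes, dashed lines mark 1.5-fold and genes past it are named. The NOD signalling and regulator lists stay inside the lines, and the calls lie in the transporter, peptidoglycan, endolysosomal and cytokine lists.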

How the data were processed

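The authors deposited a log2 signal for each probe set of a mouse whole-transcript array, made with RMA per the labels' descriptions. RMA equalises the arrays, so a shift of most genes in 1 direction cannot be seen. The software and annotation build behind the values are not stated in the labels. Array medians lay between 5.40 and 5.44. Of 41345 probe sets, 23521 had 1 gene symbol in the array's annotation table, 1814 several and 16010 none here, and 23328 of the first were found by gene ID in a RefSeq table (GRCm38.p6). Predicted and olfactory receptor genes, small RNAs and antigen receptor segments were set aside. The brightest probe set stood for a gene, which left 17532 genes, 11081 of them tested. The table has no detection flags, so the limit is not a measured background.

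Each comparison is a log2 difference between single arrays, counted at 1.5-fold, with no test. Counting was checked on simulated data, which does not show whether any call made here is right. The named genes were all members and, in each list, up to 4 genes at 1.5-fold or else the 2 brightest. Members, lists and rules were chosen with earlier results of these data known. Ccl2, Slc15a1, Slc15a5, Slc46a2, Slc46a3, Il7r, Fcgr1, Slc4a1, Car1, Rhag, Lyz1, Klrb1c, Irf8, Flt3, Cadm1, Itgae, Clec9a and the sex-linked genes were named outside that rule. Alternatives were a 2-fold threshold, no limit, a limit at the 75th percentile (6.91), signals raised to the limit, centring, cyclic loess (limma 3.58.1, R 4.3.3, span 0.7, 3 iterations), the mean of probe sets, and keeping the genes and shared probe sets left out. Other steps used Python 3.11.15 and pandas 2.3.3.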

Additional observations from a re-analysis of the deposited data

Results flagged for a closer look

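For 3 members the XCL1 difference had opposite signs in KO and WT, on 1 array per group, and whether the XCL1 effects differ between the genotypes was not tested. For Slc15a4 it was 0.15 in KO and -0.04 in WT, which gives 0.19 for KO minus WT. For Nod1 it was 0.15 in KO and -0.03 in WT, which gives 0.18. For Nod2 it was -0.24 in KO and 0.07 in WT, which gives -0.30. Opposite signs were found in 43.8% of all tested genes, and all 3 members stayed within 1.5-fold.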

How the results depend on the processing

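Slc15a2 was the 1 member called in each genotype pair and in both together under 6 of the 8 alternatives. Of those 6, only centring and cyclic loess changed its values. No limit, signals raised to the limit, the mean of probe sets and keeping shared probe sets left them as they were. The count was 0 with a 2-fold threshold, and 0 with the limit on signal at the 75th percentile, which Slc15a2 does not reach. Its difference ran from -0.85 to -0.75 with LPS and from -0.82 to -0.72 with LPS and XCL1. In the XCL1 comparisons no member was called under any of the 8. The 25 differences of members gave 125 values under alternatives. All moved by less than the SD of the tested genes' differences, and 8 had the other sign, all of values within 0.07 of 0. Raising signals to the limit and keeping shared probe sets left every member value unchanged, and the mean of probe sets changed Nod2 only. The size of a move therefore describes centring, cyclic loess and the mean of the Nod2 probe sets. With centring, Slc15a3 with LPS was at 0.10, and Slc15a4 and Nod2 with LPS and XCL1 were at 0.04 and 0.07. Centring added 0.10 to each genotype difference and changed the calls over all genes to 208 higher and 51 lower in KO with LPS, beside 112 and 111. With LPS and XCL1 they were 334 and 92, beside 186 and 198. No paired analysis was possible because the labels give no replicate numbers and each group has 1 array, so leaving out an array removes a group. An additive fit of genotype and treatment to the 4 arrays would leave 1 residual degree of freedom, with any difference between the XCL1 effects counted as noise, and was not made.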
